A study of Homo sapiens with 4 samples.

Results

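Folate uptake and folate-dependent one-carbon metabolism were examined in T84 cells, a line from a human colorectal carcinoma whose cells grow as a polarised sheet, through 8 genes: FOLR1, SLC19A1, SLC46A1, GGH, TYMS, MTHFD1, SHMT1 and SHMT2. They were taken from 19775 genes with at least 1 probe set named for them alone on the Affymetrix U133 Plus 2.0 array. Of the 8, FOLR1 was chosen by its measured signal in these same arrays, where it was high with miRNAs, and the other genes were chosen as its pathway, so the FOLR1 values are a description. There was 1 array in each of 4 groups, with no replicates, so no test across samples was possible and no error of a group could be estimated. Every group held T84 cells on permeable filters that received 15 pmol of oligonucleotides. The 4-miRNA cells received miR-338-3p, miR-451, miR-210 and miR-33a and were collected on day 5. The 2-miRNA cells received miR-338-3p and miR-451 and were collected on day 5. The control cells received a short RNA with little homology to human miRNAs and were collected on day 7 or on day 5. The labels do not say if 15 pmol was the total of a mix or the amount per oligonucleotide, so a lower dose of the miRNAs held by both mixes and the addition of miR-210 and miR-33a cannot be told apart.

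Folates are vitamins that carry single carbon units. They enter cells through the high-affinity folate receptor, which is anchored to the cell surface and taken up by endocytosis, or through the reduced folate carrier and the proton-coupled carrier, the last being the main route of absorption in the upper intestine. Inside the cell the carbon units come mainly from serine and are spent on thymidylate, purines and methionine, so the enzymes of the pathway are prominent in dividing cells.

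The miRNAs delivered act through the seed, bases 2 to 8, which pairs with messenger RNA. The mature sequences of 3 of them from RefSeq (GRCh38.p14) are shown because they define the treatment, with the seed in capitals, and miR-451, held by both mixes, is named only. The labels name no arm for miR-33a and miR-210, and the arms that carried these names before arm suffixes were added are shown. The transfected oligonucleotides themselves were not given as sequences, and the 3 seeds differ from each other.
hsa-miR-338-3p: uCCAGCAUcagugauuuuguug
hsa-miR-33a-5p: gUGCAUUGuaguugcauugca
hsa-miR-210-3p: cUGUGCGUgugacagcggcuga
They lie at chr17:81125887-81125908 on the minus strand, chr22:41900949-41900969 on the plus strand and chr11:568112-568133 on the minus strand.

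Signals were scaled so that the mean of each array, without the lowest and highest 2% of probe sets, was 500, and differences were taken on log2(scaled signal + 32). As deposited, the trimmed means were 150 with 4 miRNAs and 147 with 2 miRNAs, against 74.3 in the day 7 control and 76.6 in the day 5 control, so array brightness and miRNA treatment cannot be told apart. The 3′ GAPDH control probe set, as deposited, read 13461 and 14071 with 4 and 2 miRNAs. In the day 7 and day 5 controls it read 14259 and 12948. After scaling these became 44881 and 47756, against 95965 and 84532. That of ACTB went from 10792 and 10570, against 8495 and 8439, to 35983 and 35875, against 57173 and 55093. The 3′ to 5′ signal ratio of the ACTB control probe sets, a sign of RNA quality, was 1.97 and 2.28 with 4 and 2 miRNAs, against 2.33 and 2.11 in the day 7 and day 5 controls. All 13 colon epithelium markers were expressed on these arrays. Of the leukocyte markers 2 of the 4 with a probe set were expressed, CD3E and ITGAM, and their summed signal was between 156 and 301. CD3E was at or above the array median on all 4 arrays and ITGAM on 1, while PTPRC and CD14 were under it on all 4. Of the endothelium markers 1 of 4 was expressed, PECAM1, at or above the array median on all 4 arrays with a signal between 157 and 239. VWF, CDH5 and KDR were under the array median on all 4 arrays. The expressed fibroblast markers, 3 of 7, summed to a scaled signal of 276 and 372 with 4 and 2 miRNAs, against 631 and 547 in the day 7 and day 5 controls, and the part of these markers in the results was not tested. For 1735 genes with 2 well-measured probe sets, the SD specific to a probe set was 0.57 for the 4-miRNA array and 0.58 for the 2-miRNA array against the day 5 control, 0.27 for day 7 against day 5 and 0.19 between the miRNA arrays. This SD measures disagreement between probe sets and holds nothing of the variation between cultures.

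The 8 genes had 24 probe sets, of which 13 passed the filter on low signal, and 7 of the 8 genes had at least 1 that passed. The exception was SHMT1. A probe set passed if its mean log2 signal was not below the overall median, or if on any array its signal was at or above the 75th percentile, and a gene with 1 such probe set is called expressed. The brightest passing probe set on average was used for each gene, and the other probe sets of the 8 genes are given beside it. In the 4-miRNA array 1 of 7 genes, FOLR1, was at least 2-fold above the day 5 control, where 8.03% of all 12264 expressed genes were, and 0 of 7 were at least 2-fold below it, where 6.70% were. In the 2-miRNA array 1 of 7, FOLR1, was at least 2-fold above it (8.11% of all genes) and 1 of 7, SLC19A1, at least 2-fold below it (6.37%). The FOLR1 count was fixed by the choice of the gene and nothing is read from it. Without FOLR1, the median log2 difference of the other 6 genes was −0.48 for the 4-miRNA array and −0.50 for the 2-miRNA array, beside medians of −0.15 and −0.16 over all expressed genes. That median moved with the scaling, to −0.20 and −0.31 with a common median of the arrays, −0.17 and −0.32 with scaling on the bacterial control probe sets, and 0.48 and 0.43 without scaling, for 4 and 2 miRNAs.

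**Figure D1:**
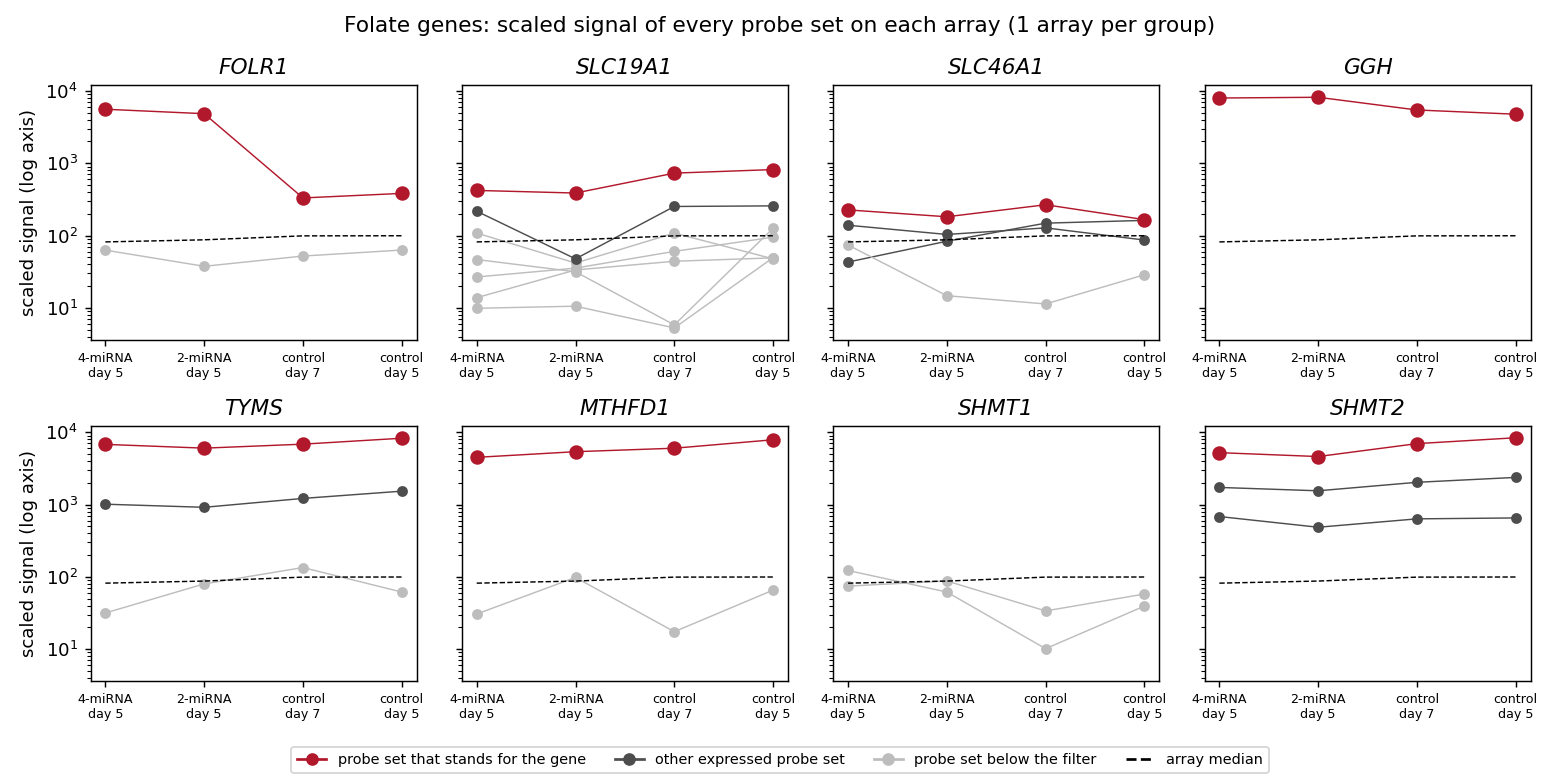
Scaled signal (log axis) of all 24 probe sets of the 8 folate genes on the 4 arrays, each point being 1 array. The probe set standing for FOLR1 lies at 5585 and 4848 with 4 and 2 miRNAs, against 331 and 383 in the day 7 and day 5 controls, while the other FOLR1 probe set lies under the array median on all 4 arrays.

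FOLR1 encodes folate receptor alpha, the high-affinity receptor of epithelial surfaces. Its probe set 211074_at had a scaled signal of 5585 with 4 miRNAs and 4848 with 2 miRNAs, against 331 in the day 7 control and 383 in the day 5 control. Both miRNA arrays were high and both controls low, with no overlap. As a ratio of scaled signals without the constant, this was 14.6-fold the day 5 control in the 4-miRNA array and 12.7-fold in the 2-miRNA array. The log2 differences, which include the constant of 32, were 3.76 and 3.56. Against the day 7 control the log2 differences were 3.95 and 3.75, and FOLR1 ranked 1 from the top of the 12264 genes in both. Against the day 5 control it ranked 3 in the 4-miRNA array and 4 in the 2-miRNA array. The 4-miRNA and 2-miRNA arrays differed by 0.20 and the day 7 and day 5 controls by −0.19, beside probe set SDs of 0.19 and 0.27 for those pairs.

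The other FOLR1 probe set, 204437_s_at, did not show this. Its scaled signal was 62.8 with 4 miRNAs and 37.6 with 2 miRNAs, against 52.1 in the day 7 control and 63.0 in the day 5 control. All 4 values lay under the median of their array, which was between 81.7 and 99.3, so this probe set was dim throughout. Its log2 difference from the day 5 control was 0.00 in the 4-miRNA array and −0.45 in the 2-miRNA array, a gap of 3.76 and 4.01 to the first probe set. Among 8018 expressed genes with 2 or more probe sets, the median gap between the highest and lowest probe set was 0.97 in each of these comparisons. A gap at least as large as that of FOLR1 was found in 29 of the 8018 genes in the 4-miRNA array and in 16 in the 2-miRNA array, FOLR1 included. The size of its gap follows from the choice of FOLR1 for its high probe set, so nothing is read from these counts. The high FOLR1 signal of the miRNA arrays rests on 1 of its 2 probe sets. With the median over both, the log2 difference was 1.88 in the 4-miRNA array and 1.55 in the 2-miRNA array.

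The genes whose pattern was most like FOLR1 were found as the 6 with the smallest Euclidean distance to it over the 3 log2 differences from the day 5 control (4-miRNA, 2-miRNA and day 7). They were NCKAP1, a subunit of the WAVE complex that drives actin branching (distance 0.42), RP2, a protein of cilium trafficking (0.74), PTP4A1, a phosphatase (0.98), FUBP3, a nucleic acid binding protein (0.99), ACSL4, which activates arachidonate and other fatty acids (1.06), and RB1, the retinoblastoma protein (1.10). NCKAP1, the nearest, had a scaled signal of 8025 and 7579 with 4 and 2 miRNAs, against 735 and 646 in the day 7 and day 5 controls. Like FOLR1, each of the 6 was represented by 1 high probe set beside others that did not follow it to that size. The 6 were chosen by that high probe set, so the shortfall of the others follows in part from the choice. The 6 genes had 10 further probe sets, 6 of them above the filter. Of these 10, 0 were at least 2-fold higher in both miRNA arrays than in the day 5 control, and 1, of RP2, was in the 2-miRNA array (1.27, and 0.90 in the 4-miRNA array). The second probe set of NCKAP1 was at −0.01 and 0.52, and that of RB1 at 0.41 and 0.17, in the 4-miRNA and 2-miRNA arrays.

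Over the whole table, 107 genes (0.872% of those expressed) were at least 4-fold above the day 5 control in both miRNA arrays. Of these, 62 had another expressed probe set, and in 17 of the 62 (27.4%) another one was at least 2-fold higher in both arrays. These genes were picked by their brightest probe set, and the second FOLR1 probe set, being under the filter, is not among those of the 62.

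**Figure D2:**
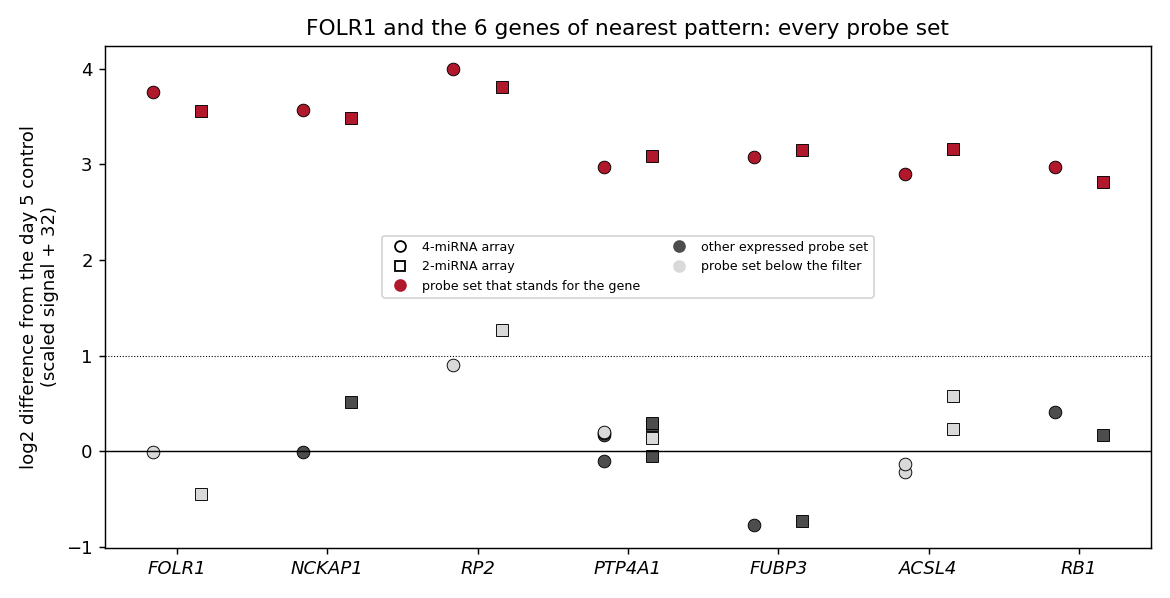
Log2 difference from the day 5 control (scaled signal plus 32) of every probe set of FOLR1 and of the 6 genes nearest to it in pattern, for the 4-miRNA array (circles) and the 2-miRNA array (squares). The probe sets that stand for the genes lie between 2.82 and 4.00, and the others lie between −0.77 and 1.27.

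The carriers did not go with FOLR1. SLC19A1, the reduced folate carrier, had on 211576_s_at a scaled signal of 421 with 4 miRNAs and 387 with 2 miRNAs, against 730 in the day 7 control and 818 in the day 5 control. Both miRNA arrays were below both controls. The log2 difference from the day 5 control was −0.91 in the 4-miRNA array and −1.02 in the 2-miRNA array, and −0.16 for day 7. Without scaling of the arrays these became 0.01, −0.11 and −0.16. Against the day 5 control, the SLC19A1 difference was below the median difference of all genes under all 10 alternatives in both miRNA arrays, by 0.60 to 0.88. The second expressed probe set of SLC19A1, 209777_s_at, was at 217 and 47.6 with 4 and 2 miRNAs, against 252 and 257 in the day 7 and day 5 controls. It was low on the 2-miRNA array alone, where it was under the array median. The other 5 SLC19A1 probe sets did not pass the filter and ranged between 5.27 and 127.

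SLC46A1, the proton-coupled folate carrier, gave dim signals with no common direction. Its probe set 1552279_a_at was at 226 and 182 with 4 and 2 miRNAs, against 267 and 166 in the day 7 and day 5 controls, and the miRNA values lay between those of the controls. The log2 differences from the day 5 control were 0.38, 0.11 and 0.59 for the 4-miRNA, 2-miRNA and day 7 arrays. A second expressed probe set, 1558703_at, was at 0.53, 0.19 and 0.43 in the same order. The last expressed one, 1552278_a_at, was at −1.37, −0.75 and −0.11, with signals of 43.0 and 83.4 with 4 and 2 miRNAs, both dim, against 148 and 162 in the day 7 and day 5 controls. Its other probe set did not pass the filter, with signals between 11.3 and 74.0.

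GGH, the hydrolase that trims the glutamate chain by which folates are kept in the cell, was, after FOLR1, the other expressed member above both controls. Its only probe set had a scaled signal of 7986 with 4 miRNAs and 8180 with 2 miRNAs, against 5456 in the day 7 control and 4767 in the day 5 control. The log2 difference from the day 5 control was 0.74 with 4 miRNAs and 0.77 with 2, or 1.68-fold and 1.72-fold as ratios of scaled signal, and 87.5% and 88.0% of all genes lay below these values. The day 7 control stood at 0.19. The differences are larger than the probe set SD (0.57 and 0.58) but under 2-fold. They depend on the scaling: with 4 and 2 miRNAs they were 1.02 and 0.96 with a common median, 1.05 and 0.96 with scaling on the bacterial control probe sets, and 1.67 and 1.68 without scaling. With no second probe set they have no check within the gene. They were above the median difference of all genes under all 10 alternatives, by 0.83 to 1.10.

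TYMS, thymidylate synthase, which makes the thymidylate used in DNA synthesis, had on 202589_at a scaled signal of 6787 with 4 miRNAs and 6018 with 2 miRNAs, against 6835 in the day 7 control and 8258 in the day 5 control. The miRNA arrays were below the day 5 control, but the 4-miRNA array and the day 7 control were nearly level. The log2 differences from the day 5 control were −0.28, −0.45 and −0.27 for the 4-miRNA, 2-miRNA and day 7 arrays, all under 2-fold. That of the 4-miRNA array was 0.03 with scaling on the bacterial control probe sets. The second expressed probe set of TYMS gave −0.58, −0.72 and −0.33 in the same order. The remaining probe set did not pass the filter, with signals between 31.6 and 134.

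MTHFD1, the cytosolic enzyme that interconverts the one-carbon forms of folate, was at 4491 with 4 miRNAs and 5375 with 2 miRNAs, against 6006 in the day 7 control and 7859 in the day 5 control. It was lowest with 4 miRNAs and highest in the day 5 control, with log2 differences of −0.80, −0.55 and −0.39 for the 4-miRNA, 2-miRNA and day 7 arrays. Its other probe set did not pass the filter, with signals between 17.4 and 98.0.

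SHMT2, the mitochondrial enzyme that takes the one-carbon unit from serine, was at 5212 with 4 miRNAs and 4607 with 2 miRNAs, against 6951 in the day 7 control and 8380 in the day 5 control. Its log2 differences from the day 5 control were −0.68, −0.86 and −0.27. A second probe set gave −0.45, −0.61 and −0.22, and another 0.06, −0.40 and −0.04, in the order of the 4-miRNA, 2-miRNA and day 7 arrays. SHMT1, the cytosolic form, was measured by a pair of probe sets that did not pass the filter. One read 74.4 and 87.6 with 4 and 2 miRNAs, against 33.7 and 57.8 in the day 7 and day 5 controls, and the other 122 and 61.6 with 4 and 2 miRNAs, against 10.1 and 39.4 in the day 7 and day 5 controls. Both lay above both controls, mostly under the array median. For SHMT1, 2 further probe sets that also carry another gene's name were left out.

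With the arrays scaled to a mean of 500, the 3 enzymes TYMS, MTHFD1 and SHMT2 were lower in every array than in the day 5 control, the day 7 control included, but without scaling of the arrays they were higher in both miRNA arrays, with TYMS at 0.67 and 0.48, MTHFD1 at 0.16 and 0.39 and SHMT2 at 0.28 and 0.08 for the 4-miRNA and 2-miRNA arrays. Without scaling, the median of all genes stood at 0.61 and 0.58 in these comparisons. Relative to that median, MTHFD1 and SHMT2 stayed below it in both and TYMS in the 2-miRNA array, and TYMS was above it by 0.06 in the 4-miRNA array. In these bulk samples fewer cells of a kind and less RNA per cell cannot be told apart.

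Of the 7 genes, 2 (FOLR1 and GGH) lay above both controls on both miRNA arrays, where 22.8% of all expressed genes did, and 4 (SLC19A1, TYMS, MTHFD1 and SHMT2) lay below both controls, where 41.0% did. Lying apart from both controls was common over the whole array, so these counts say little about the folate genes. The count below both controls also moved with the scaling. It was 2 (SLC19A1 and SHMT2) with a common median, 3 with running-median centring, 1 (SLC19A1) with the bacterial controls and 0 without scaling, where 24.7%, 33.5%, 13.1% and 0.892% of all genes were. GGH was above both controls under all 10 alternatives, and so was FOLR1, which was chosen for its high signal with miRNAs. Against the day 7 control, FOLR1 was the 1 gene of 7 at least 2-fold higher in the 4-miRNA array (5.63% of all genes) and in the 2-miRNA array (6.19%), and 0 of 7 were at least 2-fold lower (4.15% and 4.04%). All differences from the day 5 control share its single array. Between the miRNA arrays 0 of 7 differed by 2-fold (2.37% of all genes), and the largest difference was that of SLC46A1 (0.27). Between the day 7 and day 5 controls 0 of 7 passed 2-fold upward (3.35% of all genes) or downward (2.41%).

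**Figure D3:**
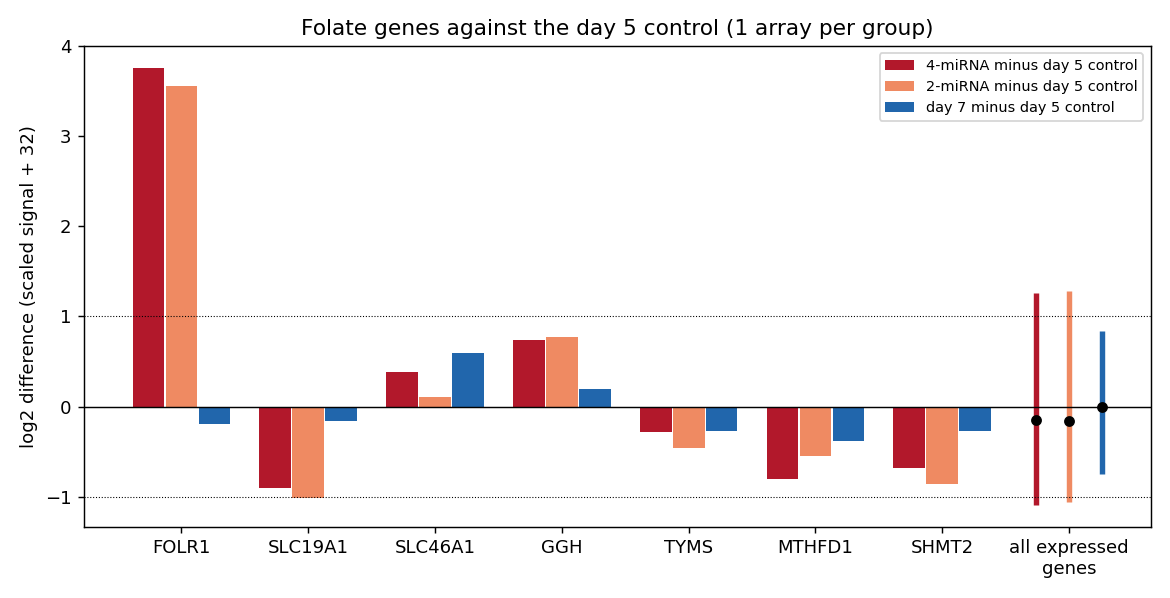
Log2 difference (scaled signal plus 32) from the day 5 control of the 7 expressed folate genes in the 4-miRNA, 2-miRNA and day 7 arrays, with the median (point) and the 5th to 95th percentiles (line) of all 12264 expressed genes at the right. FOLR1 lies at 3.76 and 3.56 in the miRNA arrays and the other 6 genes between −1.02 and 0.77.

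The start regions of the enzymes TYMS and MTHFD1 are shown because both genes were lower on the miRNA arrays than in the day 5 control after scaling to a mean of 500. SHMT2 was also lower but had no matched promoter. RefSeq promoters were matched for 5 of the 8 genes: SLC19A1, SLC46A1, TYMS, MTHFD1 and SHMT1. For TYMS and MTHFD1 the 250 bases before the start are printed with motif matches in capitals. Motifs were searched on both strands. The first was CACGTG, the E-box bound by MYC family factors. The next was CCAAT, known as the site of the factor NF-Y. The others were GGGCGG, a GC box bound by SP1, and TTTGGCGC, a site of the E2F factors of the cell cycle.
TYMS, chr18:657403-657652, GRCh38.p14, plus strand: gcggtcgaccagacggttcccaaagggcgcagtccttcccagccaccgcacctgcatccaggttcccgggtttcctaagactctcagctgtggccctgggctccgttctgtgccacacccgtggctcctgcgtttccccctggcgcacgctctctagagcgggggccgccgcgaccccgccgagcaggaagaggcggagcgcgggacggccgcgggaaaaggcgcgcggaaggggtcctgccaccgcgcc
MTHFD1, chr14:64388103-64388352, GRCh38.p14, plus strand: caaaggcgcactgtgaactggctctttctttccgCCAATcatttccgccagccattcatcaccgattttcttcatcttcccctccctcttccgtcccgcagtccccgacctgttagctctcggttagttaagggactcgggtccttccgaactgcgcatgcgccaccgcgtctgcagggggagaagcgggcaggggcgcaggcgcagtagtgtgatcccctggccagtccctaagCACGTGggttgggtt
The MTHFD1 window held the NF-Y motif 216 bases and the E-box 15 bases before the start, with no overlap. The TYMS window held 0 matches to these exact letters. Other forms of the sites, those of the E2F factors included, were not searched, so 0 matches does not mean that TYMS lacks such sites. Of the matched genes not printed, SLC19A1 held the GC box 4 times before 1 start and 1 time before another. SLC46A1 held the GC box 1 time, and SHMT1 held the GC box and the NF-Y motif 2 times each. Among 35116 RefSeq windows of the same length, 2228 (6.34%) held the E-box, 11240 the NF-Y motif, 14973 (42.6%) the GC box and 193 (0.550%) the E2F motif on either strand. A match describes letters and was not tested for binding.

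The rest of the pathway was taken from 8 lists with 63 other genes, of which 44 were expressed. In the 4-miRNA array 1 of the 44 was at least 2-fold above the day 5 control and 3 were at least 2-fold below it, with a median of −0.37. In the 2-miRNA array 2 were at least 2-fold above it and 4 below it, with a median of −0.21. On day 7, 2 were at least 2-fold above day 5 (3.35% of all genes) and 0 below (2.41%), with a median of −0.07. The 1 and 2 genes above the day 5 control in the miRNA arrays are smaller shares than over all genes (8.03% and 8.11%). Of the genes below it, the 3 with 4 miRNAs are about the share over all genes (6.70%). The 4 with 2 miRNAs are a somewhat larger share (6.37% over all genes). Counts this small say little about the pathway. The lower calls depend on the scaling. With a common median or with the bacterial controls, 0 of the 44 were at least 2-fold below the day 5 control in either miRNA array. Of all 12265 genes, 371 and 437 were with a common median and 349 and 435 with the bacterial controls, for 4 and 2 miRNAs. Without scaling 13 and 12 of the 44 were at least 2-fold above the day 5 control and 0 below it with 4 and 2 miRNAs. Of all 12222 genes, 3155 and 2953 were then above it and 9 and 10 below it. The medians of the 44 were −0.09 and −0.04 with a common median, −0.07 and −0.04 with the bacterial controls, and 0.49 and 0.57 without scaling.

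A further 43 expressed probe sets, of 27 of these genes, did not stand for their gene. Of the 43, 13, of 11 genes, were at least 2-fold from the day 5 control in 1 or both miRNA arrays. The share over all such probe sets of the array was not computed, so nothing about the pathway is read from this count. Of the 13, the 2 with the largest positive differences were singled out after their values were seen. A probe set of DHFR2 read 624 and 565 with 4 and 2 miRNAs, against 121 and 101 in the day 7 and day 5 controls, or 2.31 and 2.17 from day 5, while the brighter one used for the gene was at 0.28 and −0.27. A probe set of PPAT, which starts purine synthesis, was at 2.01 and 1.76 through a day 5 signal of 6.20, with 185 in the day 7 control, while the one used was at −0.49 and −0.50. Counts and medians of the lists therefore rest on the choice of probe set as well.

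No other folate receptor with a probe set of its own passed the filter. FOLR2 and FOLR3, receptors of the same family, and FOLH1, the brush border enzyme that trims dietary folate, had no probe set above the filter. FOLR3 was at 93.3 and 9.98 with 4 and 2 miRNAs, against 117 and 131 in the day 7 and day 5 controls. FOLR2 was at 37.1 and 25.3 with 4 and 2 miRNAs, against 150 and 29.3 in the day 7 and day 5 controls, on 1 probe set. Its other probe set was at 8.32 and 82.2 with 4 and 2 miRNAs, against 10.7 and 16.3.

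Among the 6 exporters of folates, ABCC1 and ABCC5 were the genes that passed 2-fold against the day 5 control. ABCC1, a multidrug resistance pump that also exports folates, was at 1428 and 1231 with 4 and 2 miRNAs, against 1877 and 2585 in the day 7 and day 5 controls. Its log2 difference from day 5 was −0.84 with 4 miRNAs and −1.05 with 2, and its second probe set gave −1.10 and −1.31. ABCC5, a related pump, was at −1.12 and −0.97, with a second probe set at −1.50 and −0.88 and one more, with signals between 122 and 169, at 0.30 and −0.08. ABCG2, another exporter on a single dim probe set, was at least 2-fold higher against the day 7 control alone (1.17 with 4 miRNAs and 1.31 with 2). ABCC3, an exporter of the basal surface, stayed within 2-fold (0.20 and 0.19). The list medians against the day 5 control were −0.23 with 4 miRNAs and 0.07 with 2.

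Of the cytosolic folate cycle, 6 of 9 genes were expressed, with medians of −0.06 and −0.16 for the 4-miRNA and 2-miRNA arrays, and of 0.21 and 0.02 with a common median. FPGS, which adds the glutamate chain that GGH removes, was at 315 and 481 with 4 and 2 miRNAs, against 669 and 573 in the day 7 and day 5 controls. Its log2 difference from the day 5 control was −0.80 with 4 miRNAs and −0.24 with 2, and −1.01 with 4 miRNAs against day 7. MTR, which passes the folate methyl group to homocysteine, had a pair of probe sets that disagreed, one at 0.75 and 0.73 with 4 and 2 miRNAs and the other at −0.16 and −0.07. ALDH1L1, which burns off formyl groups, was at 0.68 and 1.05 with 4 and 2 miRNAs and at 1.32 on day 7 on its first probe set, but at −0.34, −1.17 and −2.13 on its second.

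Mitochondrial genes of the cycle, 7 of 12 expressed, had medians of −0.35 with 4 miRNAs and 0.00 with 2, and none of the 7 passed 2-fold in either array. MTHFD2, which oxidises one-carbon units in mitochondria and is prominent in tumours, was nearly level at 7573 and 7943 with 4 and 2 miRNAs, against 7871 and 7946 in the day 7 and day 5 controls, on the probe set used for it. Its second expressed probe set read 141 and 76.8 with 4 and 2 miRNAs, against 181 and 236 in the day 7 and day 5 controls, or −0.63 and −1.30 from day 5.

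All 12 genes of purine and thymidylate synthesis were expressed, and 9 of the 12 were below 0 in each miRNA array, where 59.0% and 59.4% of all genes were with 4 and 2 miRNAs. Their medians were −0.44 with 4 miRNAs and −0.52 with 2, beside −0.15 and −0.16 over all genes and −0.19 for the list on day 7. They moved to −0.16 and −0.34 with a common median, −0.14 and −0.34 with the bacterial controls, and 0.43 and 0.37 without scaling. ADSL, a purine synthesis lyase, was the 1 gene past 2-fold (−1.04 with 4 miRNAs, −0.76 with 2), and its second probe set gave −0.65 and −0.39.

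In the methionine cycle 5 of 10 genes were expressed, with medians of −0.26 with 4 miRNAs and −0.53 with 2, and of 0.02 and −0.34 with a common median. MAT2A, which makes S-adenosylmethionine, was at −1.08 with 4 miRNAs and −0.66 with 2, and its second probe set at −1.39 and −1.06. AHCY, which clears S-adenosylhomocysteine, was at 3908 and 3273 with 4 and 2 miRNAs, against 5967 and 7023 in the day 7 and day 5 controls, or −0.84 and −1.09 from day 5. Of the cobalamin genes, which supply the cofactor of MTR, CD320, the receptor for transcobalamin, was at −0.79 and −1.05 with 4 and 2 miRNAs, and TCN1, a binding protein, at −0.69 and −1.09. TCN2, transcobalamin itself, was at 0.98 with 4 miRNAs, 0.24 with 2 and 1.17 on day 7. That list had 5 of 7 genes expressed and medians of −0.57 and −0.25.

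Serine synthesis held the 1 gene of the lists at least 2-fold above the day 5 control with 4 miRNAs. PSPH, which carries out the last step of serine synthesis, had a scaled signal of 2095 with 4 miRNAs and 2039 with 2 miRNAs, against 470 in the day 7 control and 657 in the day 5 control. Its log2 difference from the day 5 control was 1.63 with 4 miRNAs and 1.59 with 2. A second expressed probe set went the same way (1.38 and 1.34), which FOLR1 lacked. The remaining PSPH probe set did not go this way. It did not pass the filter, with signals between 31.8 and 125, and was at −0.90 and −0.15 with 4 and 2 miRNAs. The other genes of this short list were named after their values were seen. PSAT1, the step before, was at 0.62 and 0.56, with a second probe set at −0.02 and −0.39. PHGDH, the first step, was at −0.65 and −0.78. The list of 3 had medians of 0.62 and 0.56, which are the PSAT1 values, and its medians were above 0 under every scaling run. With the median over probe sets they fell to 0.30 and 0.08 with 4 and 2 miRNAs. Without scaling the medians of all 7 lists with expressed genes were above 0 in both miRNA arrays.

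**Figure D4:**
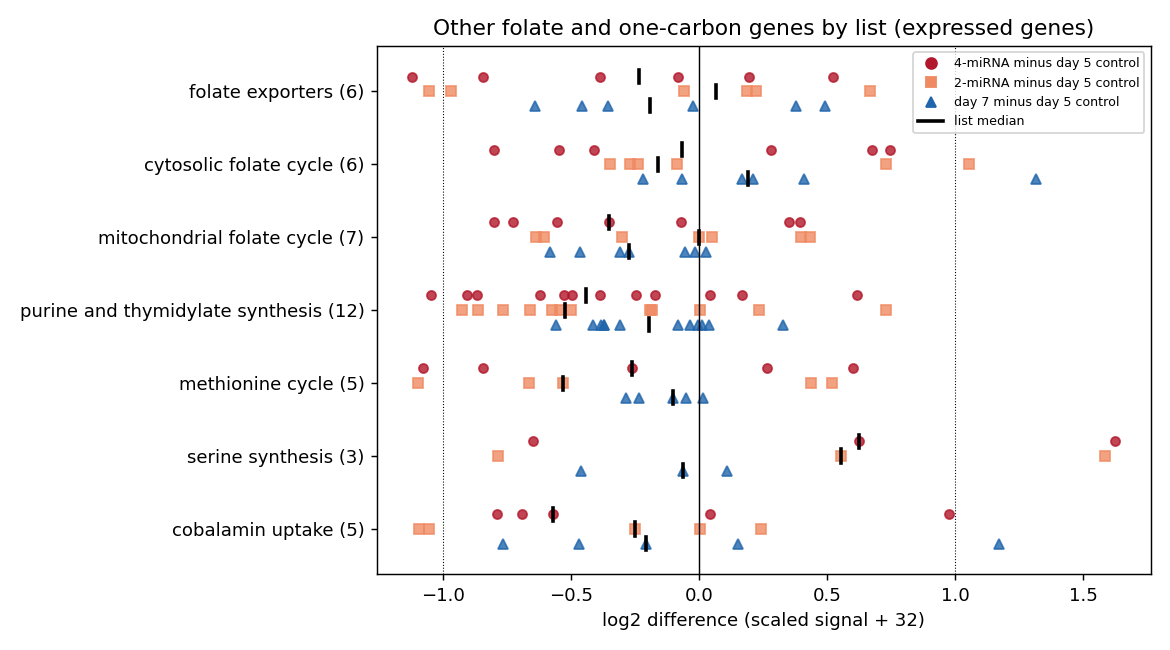
Log2 difference (scaled signal plus 32) from the day 5 control of the expressed genes of 7 lists of folate and one-carbon genes, in the 4-miRNA, 2-miRNA and day 7 arrays, each point being 1 gene and the black bar the list median. PSPH lies at 1.63 and 1.59 in the serine synthesis list, and the medians of purine and thymidylate synthesis lie at −0.44, −0.52 and −0.19 at this scaling.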

How the data were processed

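The values the authors deposited are probe set intensities; the submitters' processing notes name MAS5, without a version or a target for scaling. The table held 54675 probe sets on 4 arrays, all above 0, with trimmed means that differed between arrays. Each array was scaled to a mean of 500 without the lowest and highest 2%, and 32 was added before log2, which understates differences of dim genes. Of the probe sets, 41097 had 1 gene symbol in the platform annotation, 1801 had several and 11777 none. Symbols were updated by gene ID to GRCh38.p14. A probe set passed the filter when its mean log2 reached the median of all, or any array its 75th percentile; 12264 genes had 1. Calls were made at 2-fold, a log2 difference of 1 or −1. Members and lists were chosen with earlier results of these data known. The text names every member, list genes past 2-fold, fixed pathway genes and the 6 nearest to FOLR1; genes without a probe set of their own were not analysed here, and PSAT1, PHGDH, DHFR2 and PPAT were named after their values were seen. Calculations used numpy 2.4.6 and pandas 2.3.3 and were tested on simulated data. The number of arrays limits the precision.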

Additional observations from a re-analysis of the deposited data

How the results depend on the processing

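Each result was recomputed under 10 alternatives. FOLR1 stayed at least 2-fold above either control in both miRNA arrays under all of them. This followed largely from its choice by the signal of 211074_at, which every alternative but the median over probe sets used alone. No alternative used 204437_s_at alone, which stood at 0.00 and −0.45 from day 5 with 4 and 2 miRNAs. The median over probe sets, midway between these 2 probe sets, put FOLR1 at 1.88 and 1.55 above the day 5 control in the 4-miRNA and 2-miRNA arrays. Above the day 7 control it was 2.06 and 1.74 in the same order. With scaling on the bacterial controls FOLR1 was 4.46 above the day 7 control with 4 miRNAs. Members at least 2-fold apart from the day 5 control numbered 2 in the main setting and 1 with running-median centring, a constant of 64 or the median over probe sets, where FOLR1 alone remained. It was also 2 with a common median, bacterial control scaling or no scaling, but there GGH took the place of SLC19A1. Counts of genes at least 2-fold apart moved by over 1.5 times as follows, in the order 4-miRNA and 2-miRNA against day 5, 4-miRNA and 2-miRNA against day 7, 4-miRNA against 2-miRNA, and day 7 against day 5. They were 1807, 1776, 1200, 1254, 291 and 707 in the main setting. They were 3585, 3594, 2988, 3063, 1407 and 2816 with no filter, 1142, 1124, 633, 689, 38 and 191 with the 70th percentile filter, and 3164, 2963, 3072, 2870, 58 and 99 with no scaling. With the median over probe sets the first 5 were 1202, 1145, 767, 815 and 190. The 4-miRNA against day 7 count was 2018 with scaling on the bacterial controls, and the 4-miRNA against 2-miRNA count was 152 with a constant of 64. The split into higher and lower genes moved with the scaling. For 4-miRNA against day 5 it was 985 and 822 in the main setting, 1562 and 371 with a common median, 1145 and 574 with running-median centring, 1628 and 349 with the bacterial controls and 3155 and 9 with no scaling. For 2-miRNA against day 5 it was 995 and 781, then 1357 and 437, 1149 and 579, 1351 and 435, and 2953 and 10. For 4-miRNA against day 7 it was 691 and 509, then 1179 and 261, 851 and 334, 1879 and 139, and 3066 and 6. For 2-miRNA against day 7 it was 759 and 495, then 1060 and 306, 914 and 372, 1538 and 177, and 2861 and 9. For day 7 against day 5 it was 411 and 296, against 248 and 496 with the bacterial controls and 73 and 26 with no scaling. For 4-miRNA against 2-miRNA it was 128 and 163, against 181 and 138 with a common median and 191 and 128 with the bacterial controls. With no scaling, the constant of 32 was added to the smaller deposited signals, which understates differences more. Scaling factors were nearly equal within each pair, 6.73 and 6.53 for the day 7 and day 5 controls. They were 3.33 and 3.39 for the 4-miRNA and 2-miRNA arrays. The falls from 707 to 99 and from 291 to 58 are therefore not read as shifts in scaling between those arrays. No paired analysis was possible because each group had 1 array.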
